A study of Mus musculus with 143 samples.

Results

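Fully grown mouse oocytes wait in the ovary with an intact nucleus, the germinal vesicle (GV), and resume meiosis when they are released from the follicle. The first poly(A) RNA changes of that period were read from 16 single control oocytes: 8 sequenced at the GV stage and 8 labelled GV3h, which were cultured for 3 h. They were chosen by title from a series of 143 samples, of which 71 are single-oocyte poly(A) libraries. All 16 oocytes carry the genotype label "control" with no further allele given, were dissected from ovaries and were cultured in M2 medium, and both groups received the same mix of synthetic ERCC RNAs in the lysate. The labels give neither the age or number of the females, nor whether a meiotic inhibitor was present, nor whether the nucleus had broken down at 3 h. For comparison, 15 GV and 16 GV3h oocytes of the genotype dis3cKO (titled Dis3 cKO) were used, from mutant mice constructed by CRISPR/Cas9. DIS3 is a catalytic ribonuclease of the RNA exosome, and the driver of its deletion is not given. Metaphase II (MII) eggs of 8 controls, from oviducts of superovulated mice, give the end point of maturation. Nothing in the labels says that the oocytes of a group came from separate animals, so p-values measure the spread between single oocytes. Unless another fit is named, edgeR estimated this spread for each gene over all 71 poly(A) libraries, MII eggs of Dis3 cKO included. It is therefore not the spread of the 16 control oocytes alone.

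As background, a fully grown oocyte has all but stopped transcription and lives on stored messages. During maturation some stored messages gain a longer poly(A) tail and are translated, among them those for cyclin B1 and the kinase MOS, while many others lose their tails and are later degraded. The deadenylase CCR4-NOT with its adaptor BTG4 acts in that clearance. The libraries were made from RNA captured on oligo-dT beads, so a change in a gene's reads can follow a change in the amount of its RNA, in the length of its tail, or both, and these cannot be told apart here.

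The 16 libraries held 4843964 to 10692553 gene counts (median 8904466) and 18661 to 21431 genes with a read. Markers of the oocyte were abundant in every library: 12 of 12 listed oocyte genes, among them Zp3 and Gdf9, had reads in both groups, with summed levels of 17400 to 24100 CPM (counts scaled to a common library size) at GV and 18000 to 25200 at GV3h. Dis3 itself had 13.1 ± 2.89 CPM (SD, n = 8) at GV and 13.3 ± 4.003 (n = 8) at GV3h, and 2.88 ± 1.41 (n = 15) and 2.22 ± 1.52 (n = 16) in the oocytes labelled Dis3 cKO.

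The oocytes of a group were not evenly spread, and this bears on all that follows. Over log2 levels, GV3h oocytes 1 to 4 correlated at 0.975 to 0.981 with each other, GV3h oocytes 5 to 8 at 0.973 to 0.981, and oocytes of different sets at 0.953 to 0.965. In the GV group, oocytes 2, 3 and 6 (0.968 to 0.977) and oocytes 4, 5, 7 and 8 (0.97 to 0.978) formed such sets, with 0.94 to 0.959 between them. GV oocyte 1 stood apart at 0.902 to 0.943 from the other GV oocytes. What the sets are is not given by the labels, and their part in the results was not tested beyond the fits without single libraries and with summed counts.

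After 3 h of culture, rises of St3gal5, Mef2b, Atp6v1b2, Usf1 and Cdc20 and falls of Mlycd and Alyref2 were among the changes of control oocytes that held in every fit without 1 oocyte. Such fits keep most of each set of like oocytes, so they cannot show whether a call holds across sets. In the smaller fits of only oocytes 1 to 4 or only 5 to 8, Atp6v1b2 and Usf1 were called in both. St3gal5 was called only with oocytes 1 to 4, Mef2b and Cdc20 only with 5 to 8, and Mlycd and Alyref2 with neither. Of 17389 genes tested, 471 (2.71%) passed an adjusted p of 0.05 in edgeR's quasi-likelihood test fitted over all 6 poly(A) groups: 199 (1.14%) were higher and 272 (1.56%) lower in GV3h. The changes were mostly small, with a median size of 0.828 on the log2 scale and 263 of the 471 (55.8%) under 1. The genes that rose had a median of 0.61 and those that fell a median of -1.20. At MII, the same fit called 3950 genes higher (22.7%) and 6229 lower (35.8%) than at GV in controls. The number of calls depended on which libraries entered the fit and on how they were summed. A fit of only the GV and GV3h controls called 2083 of 13785 genes (15.1%; 1056 or 7.66% higher and 1027 or 7.45% lower), 361 of them among the 471, whereas counts summed over oocytes 1 to 4 and 5 to 8 of each group called 0 genes, with 2123 at an unadjusted p under 0.05 in edgeR and 0 to 2083 calls over all settings tried. DESeq2 called 633.

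**Figure D1:**
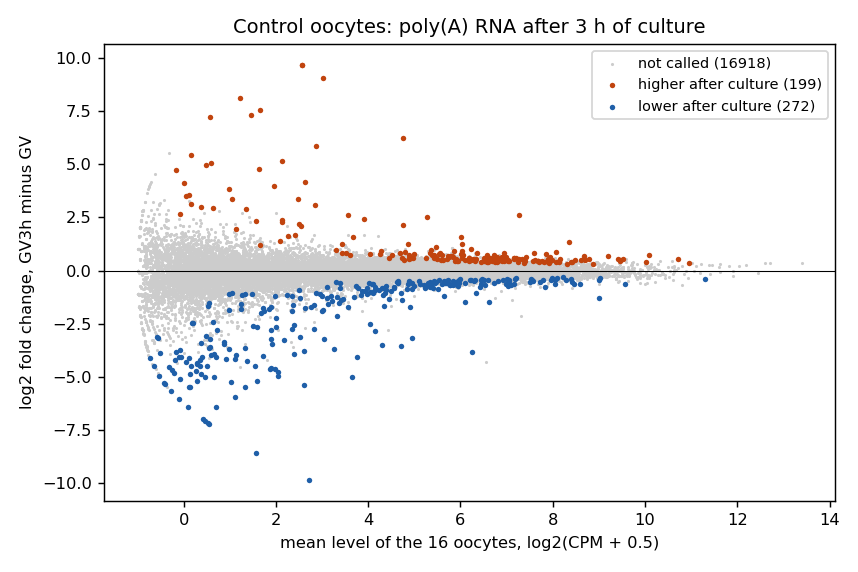
Log2 fold change of GV3h over GV in control oocytes (y axis) against the mean level of the 16 oocytes as log2(CPM + 0.5) (x axis), 1 point per tested gene. The 199 higher and 272 lower genes are coloured; most changes of abundant genes are small, and the largest falls are those of genes with few reads.

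Among the genes whose 8 GV3h values all lay above the 8 GV values (185 genes, 1.06% of those tested; 123 or 0.707% lay below), the lowest adjusted p was that of Atp6v1b2 (ENSMUSG00000006273, chromosome 8, 69088736 to 69113718 in GRCm38.p6), which encodes a B subunit of the vacuolar proton pump that acidifies lysosomes. Its level ran from 152 through a median of 180 to 232 CPM in the GV oocytes and from 361 through 455 to 616 CPM in the GV3h oocytes. Every GV3h oocyte thus stood above every GV oocyte, with oocytes 5 to 8 (median 556 CPM) above oocytes 1 to 4 (375 CPM). The log2 fold change was 1.32 (SE 0.16, edgeR adjusted p 2.7e-08), and it was called in 16 of 16 fits that each left out 1 oocyte. Usf1, a transcription factor of the basic helix-loop-helix family, rose from 22.0 to 41.8 CPM (median 25.7) at GV to 46.8 to 70.02 CPM (median 61.5) at GV3h, which is 1.12 ± 0.17 (SE) on the log2 scale with an edgeR adjusted p of 4.1e-05. GV oocyte 5 was the highest GV oocyte for Usf1 and still lay under the lowest GV3h oocyte.

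St3gal5, the sialyltransferase that makes the ganglioside GM3, had 23.6 to 55.4 CPM (median 29.01) at GV and 59.95 to 132 CPM (median 91.1) at GV3h. Its log2 fold change was 1.59 (SE 0.26, edgeR adjusted p 0.00011), and GV3h oocytes 1 to 4 were higher than oocytes 5 to 8, with medians of 127 and 73.5 CPM. The transcription factor gene Mef2b rose from 5.82 to 16.9 CPM (median 11.9) at GV to 29.6 to 120.4 CPM (median 61.6) at GV3h, which is 2.52 ± 0.42 (SE) on the log2 scale with an edgeR adjusted p of 0.00016, and here oocytes 5 to 8 (median 87.8 CPM) were above oocytes 1 to 4 (34.4 CPM). The groups did not overlap for either gene, although the sets within GV3h lay on opposite sides. Map1s, which encodes a microtubule-associated protein, stood at 5.80 to 16.7 CPM at GV and 23.4 to 73.2 CPM at GV3h (log2 2.16, SE 0.45, edgeR adjusted p 0.0028). Inpp4b, a phosphatase of phosphoinositides, was at 0 CPM in 6 GV oocytes, reached 1.25 CPM in GV oocyte 1 and lay between 3.04 and 16.4 CPM at GV3h (log2 5.15, SE 1.20, edgeR adjusted p 0.0081; 7.33 at most in the fits without 1 oocyte).

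Crtc1, a coactivator of CREB, rose from 24.8 to 54.4 CPM at GV to 59.6 to 94.6 CPM at GV3h (log2 0.94, SE 0.17, edgeR adjusted p 0.00067). Polr1a, the largest subunit of RNA polymerase I, rose from 36.6 to 69.8 CPM to 83.3 to 120.2 CPM (log2 1.01, SE 0.23, edgeR adjusted p 0.0062). Ccdc38 (log2 1.58), the pseudogene Tcea1-ps1 (2.19) and Armc7 (0.87) were also called in each of the 16 fits without 1 oocyte. Reads of Tcea1-ps1 may be shared with its parent gene Tcea1, which was itself lower (log2 -0.59, SE 0.15, edgeR adjusted p 0.015). The calls of Otogl (2.63), Laptm5 (1.38), Rhbdf1 (1.26) and Ggct (0.87) lay near the threshold and were lost in most fits without 1 oocyte. The fit of only the GV and GV3h controls called all 4, with edgeR adjusted p-values of 0.000287, 0.00652, 0.0376 and 6.15e-06. Otogl was called in 1, Laptm5 in 7, Rhbdf1 in 4 and Ggct in 2 of the 16 fits without 1 oocyte, with edgeR adjusted p-values of up to 0.0989 without GV oocyte 3 for Otogl, and without GV oocyte 2 up to 0.098 for Laptm5, 0.0915 for Rhbdf1 and 0.0938 for Ggct. Otogl was also called when counts were summed over sets of like libraries (2.49, edgeR adjusted p 0.0409). Rhbdf1, an inactive rhomboid protein, was at 0 CPM in GV oocyte 1 and at 31.8 to 58.0 CPM in the other GV oocytes, against 74.9 to 108 CPM at GV3h.

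**Figure D2:**
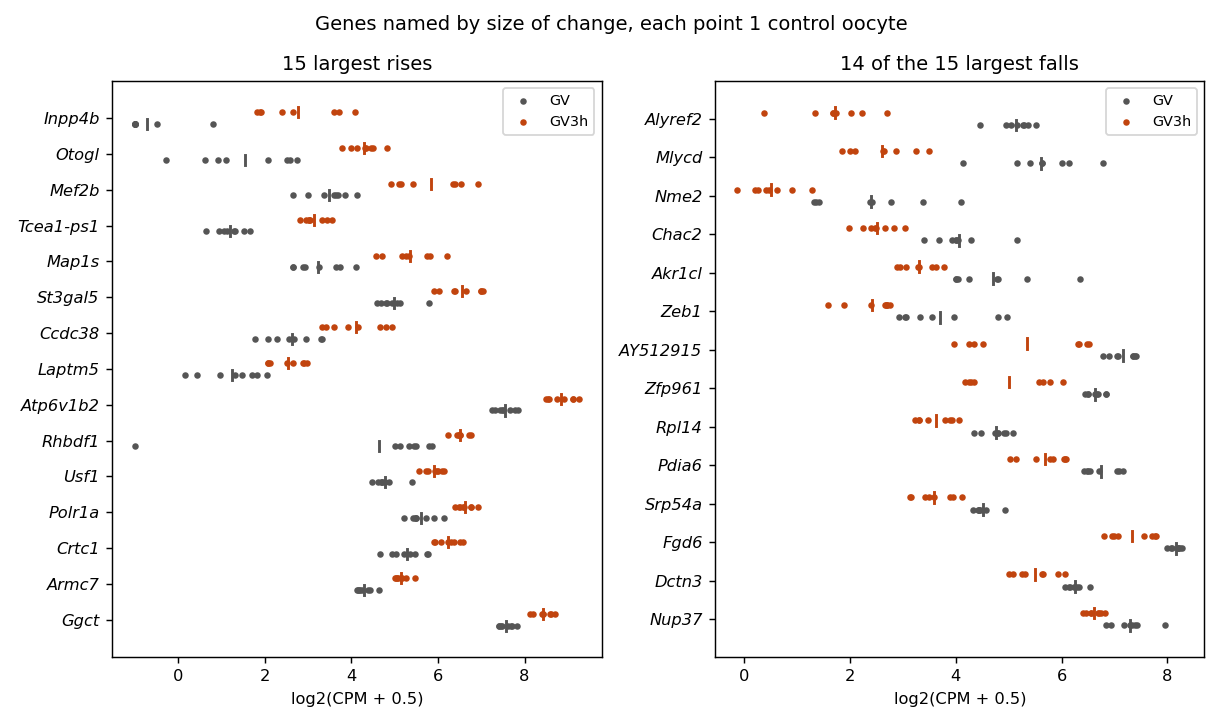
Levels of the 15 genes with the largest rise and 14 of the 15 with the largest fall among called genes whose groups do not overlap, as log2(CPM + 0.5), 1 point per control oocyte and a bar for the mean of the 8 oocytes of a group. GV3h points lie wholly to the right of GV points on the left panel and wholly to the left on the right panel; Zfp961, AY512915 and Fgd6 fall into separate sets of 4 within GV3h.

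Among the falls named by size and without overlap, Alyref2 (ENSMUSG00000060244, chromosome 1, 171503478 to 171504750 in GRCm38.p6), a relative of the messenger RNA export adaptor ALYREF, had the largest change. It fell from 21.4 to 45.2 CPM (median 36.8) to 0.797 to 5.98 CPM (median 2.75), which is -3.51 ± 0.68 (SE) on the log2 scale with an edgeR adjusted p of 0.0012. Reads of Alyref2 may be shared with its near-identical relative Alyref. Alyref2 and Mlycd were also called when counts were summed over sets of like libraries, where 14 genes passed in all. Mlycd, the malonyl-CoA decarboxylase that regulates fatty acid oxidation, ran from 17.2 to 110.1 CPM (median 49.1) at GV and from 3.12 to 10.7 CPM (median 5.72) at GV3h (log2 -3.17, SE 0.65, edgeR adjusted p 0.0023).

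Several falls separated the sets within GV3h as well as the groups. AY512915 stood at 109 to 168 CPM at GV, at a median of 19.2 CPM in GV3h oocytes 1 to 4 and at 84.4 CPM in oocytes 5 to 8. The zinc finger gene Zfp961 stood at 86.1 to 114 CPM at GV and at medians of 52.02 and 18.9 CPM in those sets. Fgd6, a guanine nucleotide exchange factor for CDC42, stood at 255 to 310.4 CPM at GV and at medians of 124 and 212 CPM. In edgeR, the GV3h minus GV differences on the log2 scale were -1.47 (SE 0.41) for AY512915, -1.45 (SE 0.34) for Zfp961 and -0.79 (SE 0.19) for Fgd6, with adjusted p-values of 0.032, 0.0086 and 0.012. AY512915 was called in 9 of the 16 fits without 1 oocyte, with an edgeR adjusted p of up to 0.0735 without GV3h oocyte 4.

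Nup37, a nucleoporin of the Y complex, fell from 115 to 249 CPM (median 158) to 84.7 to 112 CPM (median 98.4), which is -0.71 ± 0.13 (SE) on the log2 scale with an edgeR adjusted p of 0.00058. Chac2, an enzyme that degrades glutathione, fell from 10.1 to 35.3 CPM to 3.43 to 7.69 CPM (log2 -1.69, SE 0.27, edgeR adjusted p 0.00010). GV oocyte 1 was the highest oocyte for both, and without it the log2 values were -0.57 and -1.44. Srp54a (-0.91) and Rpl14 (-1.16) were called in each of the 16 fits without 1 oocyte; both have close copies that could share reads. Dctn3 (-0.73) was called in 9 and Pdia6 (-1.04) in 6 of these fits, with edgeR adjusted p-values of up to 0.0868 and 0.0915 without GV oocyte 2. Under scaling to the ERCC RNAs, which raised the median log2 fold change of all genes from -0.05 to 0.17, 118 genes passed (66 higher, 52 lower), so that 55.9% of calls were higher in place of 42.3%. Of the falls described here, Alyref2 (-3.23), Mlycd (-2.92), Chac2 (-1.47) and Zeb1 (-1.32) passed on that scale and the other 10, from Nup37 (-0.49) to Nme2 (-2.49), did not, each with its sign kept. Of the 15 rises, Otogl (2.84), Laptm5 (1.62), Rhbdf1 (1.49) and Armc7 (1.12) did not pass on that scale.

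The largest falls lay among genes with few reads, and some genes of granulosa cells, which surround and feed the oocyte, were among them. Of the 272 genes that fell, 101 did so beyond -2 on the log2 scale, and 70 of these had under 5 CPM on average at GV. Inha, the inhibin alpha subunit of granulosa cells, stood on the scale of all gene counts at 4.66 to 62.4 CPM in GV oocytes 2 to 8, at 0 in GV oocyte 1 and at 0 to 3.75 CPM at GV3h. Hsd3b1, a steroidogenic enzyme, ran from 0 to 25.1 CPM at GV and from 0 to 0.586 CPM at GV3h. The follicle gap junction gene Gja1, chosen after its values were seen, ran from 0 to 63.9 and from 0 to 2.81 CPM. GV oocytes 2 and 3 were the highest for Inha and Gja1, and GV oocyte 1 was at 0 for both.

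Of 17 listed granulosa and cumulus markers, 13 had a read at GV and 12 at GV3h. Their summed level ran from 97 to 215 CPM (median 130) at GV and from 72.8 to 114 CPM (median 87.1) at GV3h, a sum to which Nr5a2, Cyp19a1 and Kitl gave most in both groups. Cyp19a1 went the other way, with medians of 34.8 CPM at GV and 41.8 CPM at GV3h. The cumulus markers Ptx3, Tnfaip6, Areg and Ereg had 0 reads in all 16 oocytes. Of the 9 markers tested, 3 were called lower (Inha -4.04, Hsd3b1 -4.76 and Inhba -5.24) and 0 higher, against 1.56% of all genes called lower. The fit of only the GV and GV3h controls tested 4 of the markers and called 2 lower and 0 higher (7.45% and 7.66% of all genes). Hsd3b1 and Inhba did not pass its filter and were not tested there. Inha was called in 8 of the 16 fits without 1 oocyte (edgeR adjusted p up to 0.079 without GV oocyte 2), Hsd3b1 in 15 (0.0708 without GV oocyte 2), and Inhba in 15, with -3.65 and an edgeR adjusted p of 0.0522 without GV oocyte 5, its highest oocyte at 17.2 CPM. Lrmda had 329 reads over the GV oocytes and 0 over the GV3h oocytes. The part of granulosa RNA in the falls was not tested.

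Some of the falls were led by the same oocytes. Zeb1, a transcriptional repressor, was at 30.7 and 27.3 CPM in GV oocytes 2 and 3, at 7.06 to 15.04 CPM in the other GV oocytes and at 2.52 to 6.22 CPM at GV3h (log2 -1.52, SE 0.27, edgeR adjusted p 0.00051). Akr1cl, an aldo-keto reductase, was at 81.1 and 40.02 CPM in GV oocytes 2 and 3, at 15.6 to 27.2 CPM in the others and at 6.91 to 13.3 CPM at GV3h (log2 -1.65, SE 0.46, edgeR adjusted p 0.031, and -1.25 with an adjusted p of 0.171 without GV oocyte 2). Nme2, a nucleoside diphosphate kinase with a near copy in Nme1, was at 16.7 and 9.90 CPM in those oocytes and at 1.999 to 6.32 CPM in the others, against 0.416 to 1.92 CPM at GV3h (log2 -2.63, SE 0.66, edgeR adjusted p 0.016). Without GV oocyte 2, Nme2 was at -2.22 with an edgeR adjusted p of 0.077. The lead of these oocytes does not hold for Mlycd or Alyref2, where GV oocyte 1 was the highest.

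**Figure D3:**
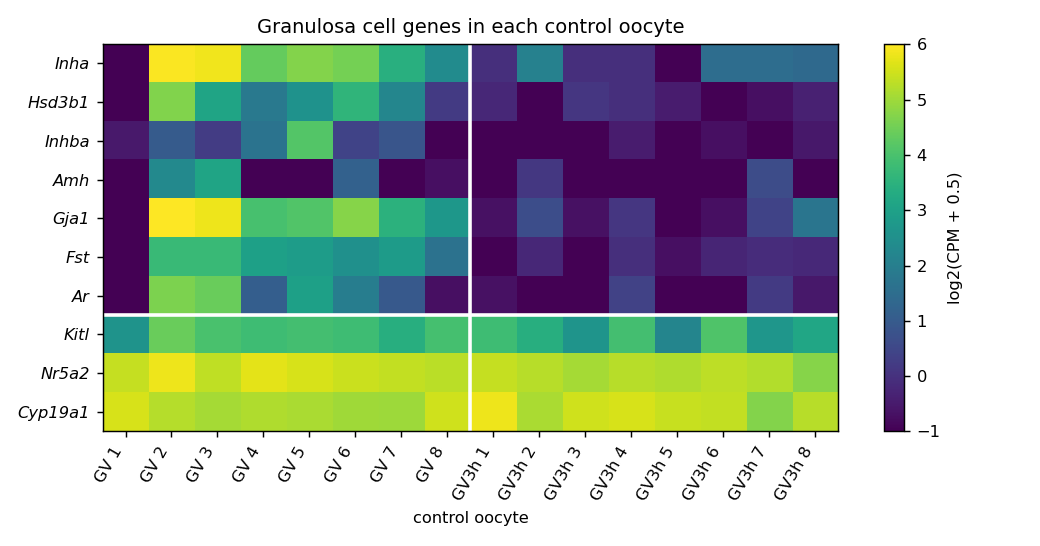
Levels of granulosa cell genes in each control oocyte as log2(CPM + 0.5) of all gene counts, with GV oocytes left and GV3h oocytes right of the white line. The upper 7 genes reach their highest levels in GV oocytes 2, 3 or 5 and lie at or near 0 in GV oocyte 1 and at most at 3.75 CPM at GV3h, while Kitl, Nr5a2 and Cyp19a1 have reads in all 16 oocytes.

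GV oocyte 1 also resembled GV3h oocytes for some genes that rose. Map4, a microtubule-associated protein, was at 222 CPM in GV oocyte 1, at 11.9 to 21.9 CPM in the other GV oocytes and at 171 to 367 CPM at GV3h. Sh3rf2, a ubiquitin ligase, was at 34.0 CPM in GV oocyte 1, at 0 to 1.51 CPM in the other GV oocytes and at 20.4 to 36.7 CPM at GV3h. Both genes were called higher (log2 2.63 and 2.41, edgeR adjusted p 0.0061 and 0.021) and were chosen here after their values were seen. With counts summed over sets of like libraries without GV oocyte 1, an alternative also chosen after seeing the data, their log2 values were 4.02 and 6.36. That fit leaves out the oocyte for which these genes were picked, so its larger values follow from the choice and are no further support. A fit without GV oocyte 1 called 555 genes, 257 higher and 298 lower, and 420 of them were among the 471. Of the 101 large falls, 93 were called lower without it. GV oocyte 1 lay at or below the highest GV3h value for 68 of the 101 and was the lowest GV oocyte for 60. Leaving it out therefore favours those falls. Over the 16 fits without 1 oocyte, the number of called genes ran from 226 without GV oocyte 2 to 555 without GV oocyte 1. It was 287 without GV oocyte 3 and 299 without GV3h oocyte 7.

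A further group of called genes was on in some GV3h oocytes and off in others. Manba, the lysosomal beta-mannosidase, was at 0 to 1.41 CPM in all GV oocytes, at 93.1 to 116 CPM in GV3h oocytes 1 to 4 and at 0 to 1.04 CPM in oocytes 5 to 8. Its fitted log2 fold change of 6.25 (SE 1.10, with an adjusted p in edgeR of 0.00038) is therefore a mean over on and off oocytes. Rrs1, a ribosome assembly factor, showed the reverse, with 0.342 to 2.16 CPM in oocytes 1 to 4 and 10.2 to 13.9 CPM in oocytes 5 to 8. Draxin, a guidance cue of axons, was likewise at 0.48 to 3.54 CPM in the first set and 16.2 to 28.1 CPM in the other. These 3 genes were chosen after their values were seen. Of the 471 calls, 454 had the same sign when only oocytes 1 to 4 or only oocytes 5 to 8 of both groups were fitted (185 of 199 higher and 269 of 272 lower), although just 51 and 67 genes passed in those smaller fits. All 8 values of a group enter each of the 471 calls, so a shared sign is not independent support.

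Messages best known to be translated during maturation were examined next. Of 18 tested messages reported to gain tail or translation through cytoplasmic polyadenylation, 1 rose (1.14% of all genes did) and 0 fell, with a median log2 fold change of 0.10 against -0.05 for all genes. The fit of only the GV and GV3h controls called 5 of the 18 higher and 0 lower (7.66% and 7.45% of all genes). The gene that rose in the fit over all groups was Cdc20, the activator of the anaphase-promoting complex. Cdc20 ran from 61.1 to 142 CPM (median 84.4) at GV and from 138 to 194 CPM (median 148) at GV3h, and only GV oocyte 4 reached into the GV3h range. Its log2 fold change was 0.82 (SE 0.17, edgeR adjusted p 0.0021), and it was called in 16 of 16 fits without 1 oocyte and under ERCC scaling. Cyclin B1 (Ccnb1) stood at 305 ± 44.9 CPM (SD, n = 8) at GV and 328 ± 26.99 at GV3h, MOS (Mos) at 1615 ± 381 and 1532 ± 154, tissue plasminogen activator (Plat) at 2521 ± 381 and 3076 ± 286 and Btg4 at 1595 ± 288 and 1751 ± 189. Their log2 values were 0.10 (SE 0.16), -0.08 (SE 0.32), 0.29 (SE 0.26) and 0.13 (SE 0.11), with edgeR adjusted p-values of 0.81, 0.94, 0.65 and 0.60. The fit of only the GV and GV3h controls called Plat higher (0.29, edgeR adjusted p 0.0356). At MII the same list held 16 messages called higher and 1 lower than at GV, against 22.7% and 35.8% of all genes.

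Among 31 tested genes of meiotic resumption, which set cyclic AMP and switch on CDK1, 1 rose and 0 fell, against 2.71% of all genes called (3 higher and 1 lower of 30, against 15.1%, in the fit of only these controls). That gene was Plk1, the polo-like kinase of mitotic and meiotic entry, at 142 to 254 CPM (median 191) at GV and 228 to 283 CPM (median 262) at GV3h (log2 0.40, SE 0.12, edgeR adjusted p 0.046). It was called in 5 of the 16 fits without 1 oocyte, with an edgeR adjusted p of up to 0.143 without GV oocyte 2. Cdk1 stood at 145 ± 24.2 CPM at GV and 124 ± 16.5 at GV3h (-0.23, SE 0.21), and Wee2, the kinase that holds CDK1 inactive in the oocyte, at 512 ± 64.9 and 553 ± 45.4 (0.11, SE 0.093). Of 33 genes of MII arrest and anaphase control 2 rose, against 1.14% of all genes (10 higher and 4 lower of 32, against 7.66% and 7.45%, in the fit of only these controls). They were Cdc20 and Ppp2r1a, the scaffold subunit of protein phosphatase 2A, which ran from 62.2 to 99.0 CPM at GV and from 106 to 146 CPM at GV3h (log2 0.59, SE 0.15, edgeR adjusted p 0.015; 0.053 without GV oocyte 2). Spindle genes (30 tested), meiotic cohesin genes (21), chromatin regulators (27), oocyte transcription factors (16), the exosome list (18) and the subcortical maternal complex (10) had 0 calls in either direction in this edgeR fit, in which 2.71% of all genes were called, with medians between -0.17 and 0.04. The 7 zona and fertilization genes and 11 oocyte-secreted factors tested also had 0 calls, with medians of 0.327 and 0.061. At an unadjusted p under 0.05 the counts in these lists were 5, 3, 4, 2, 2, 0, 2 and 1, and DESeq2 called 1 spindle gene and 0 genes of the other lists. The fit of only the GV and GV3h controls called 5 spindle genes (2 higher), 3 cohesin (1), 5 chromatin (3), 1 transcription factor (0), 1 exosome (1), 4 maternal complex (2), 3 zona (3) and 3 secreted factor genes (3), where 15.1% of all genes were called (7.66% higher). Zp3 of the egg coat was at 1298 ± 200 and 1750 ± 172 CPM (0.43, SE 0.28, edgeR adjusted p 0.48), and it was called higher in the fit of only these controls (0.44, edgeR adjusted p 0.00346).

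Of 35 tested genes of messenger RNA decay, 2 rose and 3 fell (1.14% and 1.56% of all genes did), with a median of -0.04 against -0.05. The fit of only the GV and GV3h controls called 4 higher and 6 lower of 34 (7.66% and 7.45% of all genes). Pan2, the catalytic subunit of the PAN2-PAN3 deadenylase, ran from 82.9 to 170 CPM (median 133) at GV and from 151 to 251 CPM (median 208) at GV3h (log2 0.66, SE 0.12, edgeR adjusted p 0.00058). GV oocyte 1, at 170 CPM, was the only GV oocyte above the lowest GV3h oocyte. Cnot8, a deadenylase of CCR4-NOT, rose by 0.46 (SE 0.12, edgeR adjusted p 0.019; 0.0664 without GV oocyte 2). Ddx6, a helicase of P-bodies that represses translation and promotes decapping, ran from 22.02 to 129 CPM at GV and from 21.4 to 41.3 CPM at GV3h (log2 -1.21, SE 0.28, edgeR adjusted p 0.0073). Lsm1, of the ring that binds shortened tails, fell by 0.59 (SE 0.17, edgeR adjusted p 0.041) and by 0.43 without GV oocyte 2, with an adjusted p of 0.218. GV oocytes 2, 3 and 6 were the highest for Ddx6 and Lsm1, as they were for the granulosa gene Gja1 and for the oocyte genes Zp2, Nlrp5 and Ddx4. The part of granulosa RNA in these falls was not tested. Tut4, a uridylating enzyme, was at 0.831 to 13.4 CPM at GV and at 0 to 1.35 CPM at GV3h (log2 -3.47, SE 0.67, edgeR adjusted p 0.0012). In the message storage list, 1 of 24 fell (1.56% of all genes did) and 0 rose, with 3 higher and 2 lower in the fit of only these controls (7.66% and 7.45% of all genes). It was Igf2bp3, at 138 to 292 CPM (median 260) and 139 to 200 CPM (median 179). Its log2 fold change was -0.52 (SE 0.14, edgeR adjusted p 0.029; 0.081 without GV oocyte 2), and GV oocyte 1, the lowest of its group, lay at the bottom of the GV3h range.

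Ribosomal protein genes lay lower as a group than other genes, though few passed the test one by one. Of 76 tested, 3 fell (3.95%, against 1.56% of all genes) and 0 rose, and only 4 had a fold change above 0 (5.26%, against 44.7% of all genes). Their median was -0.43 against -0.05 over all genes, and -0.22 against 0.17 under ERCC scaling. The fit of only the GV and GV3h controls called 31 of 71 lower, against 7.45% of all genes in that fit. Rpl14 ran from 19.8 to 33.2 CPM at GV and from 8.83 to 16.3 CPM at GV3h, Rps7 from 38.4 to 50.2 and from 23.4 to 32.8 CPM, and Rpl15 from 21.4 to 40.4 and from 17.9 to 23.9 CPM. The log2 values were -1.16, -0.68 and -0.48 (edgeR adjusted p 0.0049, 0.047 and 0.046). Rps7 was called in 0 and Rpl15 in 4 of the 16 fits without 1 oocyte, with edgeR adjusted p-values of up to 0.102 without GV oocyte 2 and 0.162 without GV oocyte 1. Under ERCC scaling all 3 missed the threshold (-0.96, -0.47 and -0.24), as did the falls of Ddx6 (-1.03), Lsm1 (-0.40) and Igf2bp3 (-0.30). The rises of Psmd3 (0.84), Ppp2r1a (0.82), Sdha (0.75), Atp5b (0.73), Tubb3 (0.72), Cnot8 (0.67) and Plk1 (0.64) had larger fold changes on that scale and did not pass either, while Cdc20 (1.05), Pan2 (0.92) and Tut4 (-3.27) passed. At MII 74 of the 76 were called lower than at GV, with a median of -3.41, against 35.8% and -0.27 for all genes.

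Nuclear genes of the respiratory chain had a median of -0.36 over 75 genes against -0.05 for all genes (-0.155 against 0.17 under ERCC scaling), with 13 above 0 (44.7% of all genes were). Of the 75, 2 rose and 0 fell (1.14% and 1.56% of all genes did). Atp5b, the catalytic beta subunit of ATP synthase, rose from 187 to 222 CPM to 268 to 315 CPM (0.52 on the log2 scale, SE 0.12, adjusted p 0.0075 in edgeR), and Sdha, of succinate dehydrogenase, from 72.4 to 93.0 CPM to 106 to 146 CPM (0.51, SE 0.13, adjusted p 0.018; 0.053 without GV3h oocyte 7). The fit of only these controls called 39 of 73 lower and 7 higher, against 7.45% and 7.66% of all genes. The 7 genes of the mitochondrial genome had 0 calls in edgeR (1 at an unadjusted p under 0.05, 0 in DESeq2) and a median of -0.14. In Dis3 cKO 6 of the 7 were called lower, against 9.88% of all genes, with a median of -0.861 (-0.354 under ERCC scaling, where all genes had 0.469); the difference between the genotypes was not tested for the list. Of 32 proteasome genes 1 rose (1.14% of all genes did) and 0 fell, with 3 higher and 2 lower in the fit of only these controls (7.66% and 7.45% of all genes). It was Psmd3 (62.1 to 95.2 CPM and 104 to 138 CPM, log2 0.61, SE 0.13, adjusted p 0.0039 in edgeR). The median of the list was -0.08. Of 21 cytoskeletal and housekeeping genes 2 rose and 0 fell, and the fit of only these controls called 6 higher and 2 lower, against the same shares of all genes. Sdha and Tubb3 rose (0.51 and 0.47; Tubb3 was called in 9 of the 16 fits without 1 oocyte, with an edgeR adjusted p of up to 0.107 without GV oocyte 2), while Actb (189 ± 43.3 and 139 ± 20.7 CPM) and Tuba1b (12.6 ± 7.27 and 8.66 ± 2.72 CPM) did not pass the test (edgeR adjusted p 0.12 and 0.51), though Actb was called lower in the fit of only these controls (-0.43, edgeR adjusted p 0.0212). The 14 tested stress and immediate early genes had 0 calls in edgeR (1 at an unadjusted p under 0.05, 0 in DESeq2) and a median of -0.19, on a summed level of 450 to 1000 CPM at GV and 586 to 738 CPM at GV3h.

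**Figure D4:**
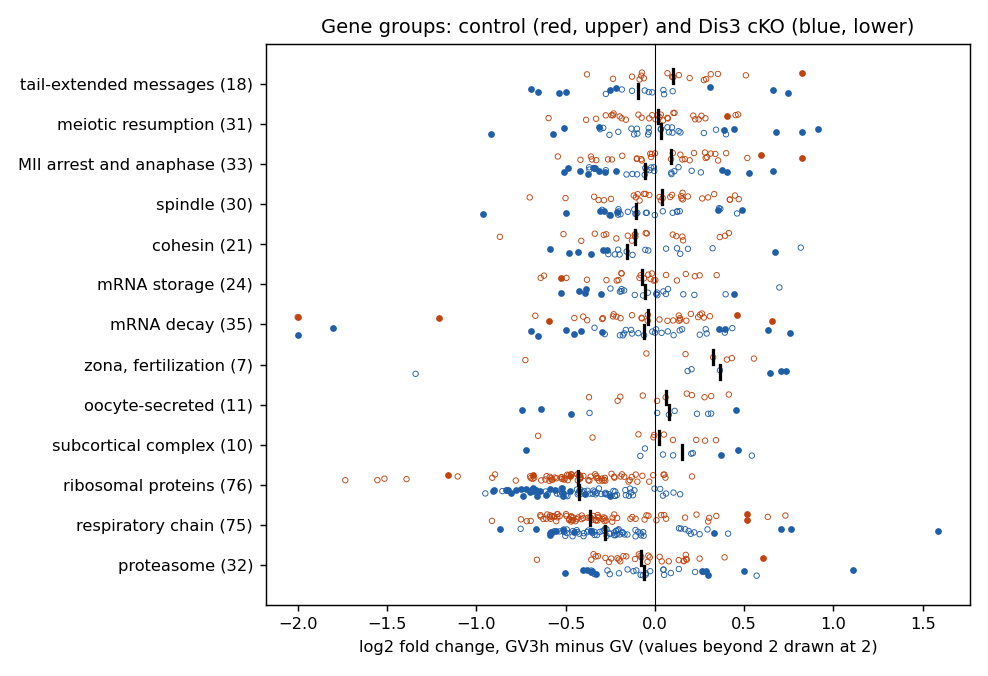
Log2 fold change of GV3h over GV for the tested members of 13 gene groups (their number in parentheses), in control oocytes (red, upper row) and in separate Dis3 cKO oocytes (blue, lower row); filled points passed the test, open points did not, and the black bars are medians. Ribosomal protein and respiratory chain genes lie mostly below 0 in both genotypes, and the other medians lie between -0.158 and 0.365; values beyond 2 are drawn at 2.

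The same comparison in oocytes labelled Dis3 cKO shares no oocyte with the control comparison and so gives a second reading of the 3 h period, although in a mutant. Both comparisons come from the same fit, which estimates the spread of each gene over all libraries, so their calls are not independent. In Dis3 cKO, 3009 of the 17389 genes (17.3%) were called, 1291 higher (7.42%) and 1718 lower (9.88%). These directions depend on the scaling: with size factors from the ERCC RNAs, 6269 genes were called higher and 165 lower in Dis3 cKO, and the median log2 fold change of all genes was 0.469 in place of 0.004. Of the 471 control calls, 171 were called in the same direction (36.3% of the control calls and 5.68% of the Dis3 cKO calls) and 14 in the opposite one. Of the genes higher in controls 82 (41.2%) were called higher in Dis3 cKO, and of those lower 89 (32.7%) were called lower. Under ERCC scaling all 82 of the first were called higher in Dis3 cKO, but 27 of the 89 were called lower there and 53 of the 89 had a fold change below 0. A shared sign was found for 357 of the 471 (75.8%), against 58.9% of all genes. Of the 15 rises named by size, 6 were called higher in Dis3 cKO (Otogl, Mef2b, Map1s, Atp6v1b2, Usf1 and Armc7), and of the falls 4 were called lower (Nup37, Fgd6, Srp54a and Akr1cl). With ERCC scaling in Dis3 cKO the 6 rises passed, as did Srp54a (-0.67) and Akr1cl (-1.42), while Nup37 (-0.14) and Fgd6 (0.02) did not. The summed level of stress and immediate early genes had medians of 524 CPM at GV and 876 CPM at GV3h in Dis3 cKO, against 643 and 661 CPM in controls. Of the 14 tested, 3 were called higher in Dis3 cKO (7.42% of all genes were). The part of stress in the Dis3 cKO changes was not tested.

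Several abundant messages called alike in both genotypes changed by small amounts, although Atp6v1b2 rose by 1.32 in controls and 0.38 in Dis3 cKO. The messages described here and the abundant falls that follow were chosen by abundance after their values were seen. The exceptions are Cdc20, Plk1 and Psmd3, which come from the gene lists above. Tcl1, a coactivator of the kinase AKT that oocytes and early embryos express, ran from 1080 to 1540 CPM in GV controls and from 1780 to 2210 CPM in GV3h controls, without overlap. Its log2 fold change was 0.57 (SE 0.14, edgeR adjusted p 0.014) in controls and 0.52 (SE 0.10, adjusted p 0.00019) in Dis3 cKO. Bpgm, which makes 2,3-bisphosphoglycerate, ran from 783 to 1050 CPM and from 1090 to 1270 CPM in GV and GV3h controls (0.41 and 0.42 in the 2 genotypes). The kinase subunit Pik3cd (0.49 and 0.29), the endosomal protein Tm9sf2 (0.52 and 0.25) and Paip2b, an inhibitor of poly(A)-binding protein (0.52 and 0.40), rose in both as well. Cdc20 (0.82 and 0.66), Plk1 (0.40 and 0.44) and Psmd3 (0.61 and 0.50) did so too. Under ERCC scaling these 8 genes were called higher in Dis3 cKO, whereas in controls Tcl1 and Cdc20 passed and the other 6 did not.

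The abundant falls described next were called with TMM scaling and not with ERCC scaling. Skp1a, an adaptor of SCF ubiquitin ligases, ran from 2430 to 3270 CPM (median 2890) in GV and from 1860 to 2830 CPM (median 2120) in GV3h controls (log2 -0.37 in controls and -0.50 in Dis3 cKO). Eif5, a translation initiation factor, fell by 0.33 and 0.34, Ktn1, a membrane protein of the endoplasmic reticulum, by 0.46 and 0.31, and Txndc9, a thioredoxin-like protein, by 0.53 and 0.43. Esco2, the acetyltransferase of cohesin, fell by 0.61 and 0.30, with GV oocyte 1 (312 CPM) inside the GV3h range of 267 to 346 CPM. Enox1 fell by 0.64 and 0.35, with 352 to 528 CPM at GV and 234 to 346 CPM at GV3h. Under ERCC scaling none of these 6 passed in edgeR in either genotype: they ran from -0.12 (Eif5) to -0.42 (Enox1) in controls and from -0.03 (Skp1a) to 0.18 (Esco2) in Dis3 cKO, where all but Skp1a turned sign. The granulosa genes Inhba and Hsd3b1 were lower at GV3h in Dis3 cKO oocytes also (-2.35 and -4.30), as were Gja1 and Fst, chosen after their values were seen (-3.38 and -3.59). These 4 were called lower there under ERCC scaling also (-1.87, -3.77, -2.79 and -3.10), while Inha was at -1.69 there and was not called (edgeR adjusted p 0.0905). Of the 101 large control falls, 33 were called lower in Dis3 cKO, against 32.7% of all control falls and 9.88% of all genes.

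**Figure D5:**
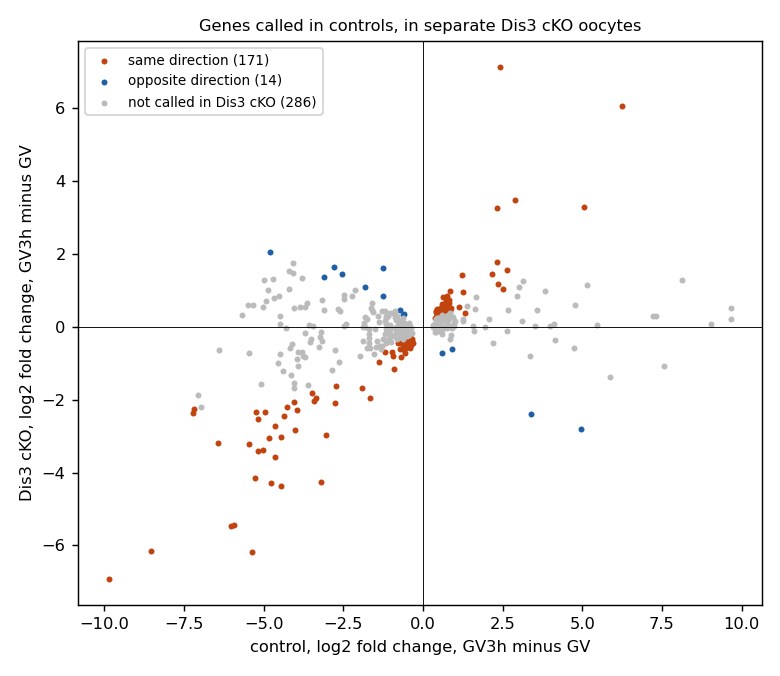
Log2 fold change of GV3h over GV in Dis3 cKO oocytes (y axis) against that in control oocytes (x axis) for the 471 genes called in controls, both with TMM scaling, 1 point per gene. The 171 genes called in the same direction lie in the lower left and upper right, 14 were called in opposite directions, and the rest did not pass in Dis3 cKO.

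Whether the 3 h change differed between genotypes was tested as an interaction. It passed for 355 of 17389 genes (2.04%), and for 121 of the 471 control calls, a share that the choice of called genes raises. The change of St3gal5 differed between genotypes: it stood at 52.2 ± 8.65 CPM (SD, n = 15) in GV and 48.07 ± 10.2 (n = 16) in GV3h Dis3 cKO oocytes, a difference in log2 fold change of -1.71 (edgeR adjusted p 0.0012). The rise of Atp6v1b2 (-0.94) was also smaller in Dis3 cKO by this test. Ccdc38 (-1.56), Tcea1-ps1 (-2.62), Ggct (-1.09) and Pan2 (-0.65) differed too. They were not called in Dis3 cKO, with log2 fold changes of 0.02, -0.43, -0.22 and 0.01 there. The falls of Mlycd (3.91), Alyref2 (3.17), Ddx6 (1.64), Chac2 (1.63), Zeb1 (1.46), Pdia6 (1.41), Dctn3 (1.19) and Lsm1 (0.95) differed in the other direction. Of these, Dctn3 (0.46) and Lsm1 (0.36) were called higher at GV3h in Dis3 cKO, and the others were not called. Mean GV levels in controls and Dis3 cKO were 6.06 and 16.9 CPM for Ccdc38, 191 and 325 for Ggct and 54.5 and 16.0 for Mlycd. For Pan2 they were closer, at 132 and 144 CPM. For the ribosomal proteins the median in Dis3 cKO was -0.425, with 26 of 76 called lower (9.88% of all genes were), but under ERCC scaling it was 0.04 there, against 0.47 for all genes. For the respiratory chain it was -0.28, and 0.20 under ERCC scaling.

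The MII and GV3h comparisons share the GV controls, so the values of named genes in each are only set side by side. Relative to GV, Atp6v1b2 was at 1.32 at 3 h and 1.72 at MII, St3gal5 at 1.59 and 2.13, Ccdc38 at 1.58 and 2.77, Otogl at 2.63 and 4.18, Crtc1 at 0.94 and 1.73, Ggct at 0.87 and 2.48 and Cdc20 at 0.82 and 1.26 on the log2 scale. Usf1 was at 1.12 and -0.71, Rhbdf1 at 1.26 and -1.60 and Armc7 at 0.87 and -0.93. Among falls, Mlycd was at -3.17 and -6.13, Rpl14 at -1.16 and -3.57, Rps7 at -0.68 and -4.50 and Dctn3 at -0.73 and -2.76. Nup37 was at -0.71 and 0.57 and Chac2 at -1.69 and 0.77.

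The amount of captured poly(A) RNA per oocyte was read by dividing the gene counts of a library by its ERCC counts. It ran from 108 to 162 (median 138) in GV and from 114 to 209 (median 154) in GV3h oocytes, with means of 137 ± 16.2 and 161 ± 28.1 (SD, n = 8 each). The groups overlapped, with GV3h oocyte 3 low at 114 and 7 of 8 GV3h oocytes above the GV mean. The log2 difference of 0.22 had a 2-sided exact permutation p of 0.0693 over 12870 regroupings. With TMM size factors of the ERCC counts the difference was 0.31 (exact permutation p 0.0087), and without GV3h oocyte 3 it was 0.29 (exact permutation p 0.0062), so that the call depended on the scale and on 1 oocyte.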

How the data were processed

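The authors' deposited files hold raw counts, whole-number read counts per gene and per ERCC RNA, 1 pair of files per oocyte. The submitters' processing notes name STAR 2.7.2a, HTSeq 0.9.1 and the build mm10; the use of strand and the annotation release are not given in the sources used here. Without strand, reads of overlapping genes cannot be told apart, and 30 of the 62 named genes overlap another gene in RefSeq (GRCm38.p6). Of 55573 gene IDs, 99.7% had a symbol. Reads carry no molecular identifiers.

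Counts were tested in edgeR 4.0.16 (R 4.3.3): filterByExpr, TMM scaling, quasi-likelihood F test over 6 poly(A) groups (71 libraries), Benjamini-Hochberg adjustment over all tested genes, threshold 0.05. SE is the log2 fold change over the square root of F. CPM are TMM-scaled, except for marker genes, which are scaled to all gene counts of the library. On simulated counts for control GV3h against GV (17048 genes), 73% of 100 changes of 1 and 96% of 100 changes of 2 on the log2 scale were recovered, with 8 other genes called. The simulated oocytes were drawn independently, without the sets seen in the data, and only genes of at least 5 CPM at GV were changed. These rates therefore cannot be carried over to the 471 calls. Replicate pairs differed beyond sampling noise (lowest chi-square per degree of freedom 6.11). ERCC ratios used exact permutation tests (Python 3.11.15). Alternatives included DESeq2 1.42.0, ERCC scaling, other filters, other groups in the fit, summed counts, a replicate block and leaving out each oocyte.

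The 15 rises and 15 falls named are the largest among called genes with a mean of at least 5 CPM and no overlap between groups, leaving out predicted models (3 higher and 6 lower), and 1 of the falls is not reported here; up to 5 called genes per list and 14 genes chosen for their role were added. The genes, lists and alternatives were chosen with earlier results of these data known. No sequences are shown, since the ends of transcripts were not analysed here.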

Additional observations from a re-analysis of the deposited data

Results flagged for a closer look

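Among 126 groups of 8 values, the CPM of 62 named genes and the gene to ERCC ratio in GV and GV3h controls, 16 held a sample whose gap to its nearest neighbour was large for the range of its group, where chance gives about 1 in 20. GV oocyte 1 was the far sample in 10 of them. It was the highest GV oocyte for Inpp4b (1.25 CPM), St3gal5 (55.4), Tubb3 (280), Mos (2400), Nup37 (249), Srp54a (29.9) and Chac2 (35.3), and the lowest for Rhbdf1 (0), Exosc10 (49.1) and Igf2bp3 (138). GV oocyte 2 was far above the others for Akr1cl (81.1 CPM) and Hsd3b1 (23.8), GV oocyte 5 for Usf1 (41.8) and Inhba (17.1), and GV oocyte 4 for Cdc20 (142). GV3h oocyte 5 was far below the others for Zp3 (1370 CPM).

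The 3 h change differed between Dis3 cKO and control oocytes, by edgeR's interaction test, for 14 named genes. As Dis3 cKO minus control on the log2 scale, the difference was -2.62 for Tcea1-ps1 (adjusted p 0.0155), -1.71 for St3gal5 (0.00123), -1.56 for Ccdc38 (0.0167), -1.09 for Ggct (0.0444), -0.94 for Atp6v1b2 (0.00256) and -0.65 for Pan2 (0.00977). It was 0.95 for Lsm1 (0.00759), 1.19 for Dctn3 (0.00517), 1.41 for Pdia6 (0.0273), 1.46 for Zeb1 (0.00977), 1.63 for Chac2 (0.00316), 1.64 for Ddx6 (0.00377), 3.17 for Alyref2 (0.018) and 3.91 for Mlycd (0.00256).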

How the results depend on the processing

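The 471 calls in controls became 118 under ERCC scaling, 2083 with the 2 groups alone, 971 with the 3 control groups, 51 with oocytes 1 to 4, 67 with oocytes 5 to 8, 0 with counts summed over those sets (2123 at an unadjusted p under 0.05 in edgeR) and 14 over sets of like libraries without GV oocyte 1, the last chosen after seeing the data. The stricter filter called 445 genes, 255 higher and 190 lower. Oocytes 1 to 4 alone gave 16 higher and 35 lower, and oocytes 5 to 8 alone gave 43 higher and 24 lower. Fewer samples enter the summed and split fits. Leaving out 1 oocyte gave 226 (GV oocyte 2) to 555 (GV oocyte 1). Calls in Dis3 cKO rose from 3009 to 6434 under ERCC scaling (6269 higher and 165 lower, against 1291 and 1718); the cause was not tested.

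The replicate block, in the 2 groups alone, gave 1902 calls against 2083 without it. Same-numbered oocytes correlated at -0.17 to 0.26, and only 2, 5 and 6 matched their own number best. The labels do not say what the numbers stand for, so whether same-numbered oocytes share anything is not known.

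Of 62 named genes, 61 kept sign and call in DESeq2 and 33 under ERCC scaling, where 27 calls were lost. Calls were also lost for 48 with counts summed over oocytes 1 to 4 and 5 to 8, 45 with sets of like libraries, 38 with oocytes 1 to 4 alone, 41 with oocytes 5 to 8 alone, 14 without a filter and 5 to 20 without 1 oocyte. The fit of the 2 groups alone added calls for 4 (Zp3, Plat, Exosc10 and Actb). Signs turned for 3 genes that were never called. Nlrp5 was at 0.1852 (ERCC), 0.0204 (no filter), 0.0164 (stricter filter), 0.0026 (2 groups), 0.0032 (3 groups), 0.0449 (block), 0.0222 (summed), 0.0678 (oocytes 5 to 8), 0.0119 (DESeq2) and -0.0537 to 0.0795 without 1 oocyte. Dis3 was at -0.0073 (block), -0.2008 (oocytes 5 to 8) and -0.0553 to 0.1093 without 1 oocyte. Mos was at 0.1534 (ERCC), 0.0147 (oocytes 5 to 8), 0.0305 (like libraries) and -0.1203 to 0.0545 without 1 oocyte.

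For the gene to ERCC ratio, control GV3h against GV, the log2 difference was 0.3124 with TMM size factors and 0.1601 to 0.2854 without 1 oocyte. A description of elements at transcript ends was not run. Genes of few reads, such as the largest falls, are limited by depth, and intervals between oocytes include amplification without molecular identifiers.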
